A study of Homo sapiens with 6 samples.

Results

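The genes described are 10 carbohydrate sulfotransferases, *CHST1*, *CHST2*, *CHST3*, *CHST4*, *CHST5*, *CHST6*, *CHST7*, *CHST11*, *CHST14* and *CHST15*, taken by symbol from the 19225 genes of an RNA sequencing table of SW480 cells. SW480 is an established human colon cancer cell line with mutant p53. The table held 3 control libraries and 3 libraries of cells transiently transfected with plasmids encoding MDM4, a negative regulator of p53, and both groups carry the numbers 1 to 3. In the labels the second group is named "exercised", which was taken to be the MDM4 group, the only other group there is. Both groups carry the mutant p53. The plasmid that the control cells received, the plasmid's promoter and the culture behind each library are not given in the sources used here, so the p-values measure the spread between these libraries, which may be technical.

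Carbohydrate sulfotransferases sit in the Golgi membrane and move a sulfate group from the donor PAPS onto a defined position of a sugar chain. *CHST4*, also called GlcNAc6ST-2, sulfates N-acetylglucosamine and is known from the high endothelial venules of lymph nodes, where it acts with *CHST2* to build the 6-sulfo sialyl Lewis x that L-selectin binds on entering lymphocytes. Related enzymes sulfate keratan sulfate in the cornea (*CHST6*) and mucin-type chains in the intestine (*CHST5*), whereas *CHST3*, *CHST11*, *CHST14* and *CHST15* sulfate the chondroitin and dermatan sulfate chains of proteoglycans. The study chose *CHST4* from these same libraries for qPCR, so its direction here is not independent evidence. By that qPCR, run in SW480 and in another colon cancer line, the paper reports *CHST4* as upregulated with *MDM4* overexpression.

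The members *CHST4*, *CHST5* and *CHST6* lie on chromosome 16, and their coding sequences are close enough for sequences to matter to the measurement. In GENCODE release 29 on GRCh38, *CHST4* (ENSG00000140835.9) spans chr16:71525233-71538746 on the plus strand, and *CHST6* (chr16:75472052-75495445) and *CHST5* (chr16:75528535-75535247) lie on the minus strand with 33089 bases between them. The coding sequences of *CHST5* and *CHST6* were identical at 87.8% of 1170 aligned bases, with a longest shared run of 108 bases. *CHST4* was identical to *CHST5* at 68.4% of 1140 aligned bases and to *CHST6* at 67.6% of 1134 aligned bases, and it shared a run of 59 bases with both. How reads that match more than 1 gene were assigned is not given in the sources used here, so the split of reads between *CHST5* and *CHST6* is uncertain. Whether reads from the shared run of 59 bases affected the counts of *CHST4* was not tested.

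The 198 bases that the study's *CHST4* qPCR primers span are shown with the matching windows of *CHST5* and *CHST6*, because they hold both a stretch that the 3 genes share and the stretch that tells them apart. The *CHST4* window lies in the coding part of exon 3 at chr16:71537207-71537404 on the plus strand, and the *CHST5* and *CHST6* windows lie at chr16:75529601-75529798 and chr16:75479111-75479308 on the minus strand. Each is written 5′ to 3′ along its gene. Capitals mark the 2 primer sites in *CHST4* and, in the other two, the bases that differ from *CHST4*.
CHST4: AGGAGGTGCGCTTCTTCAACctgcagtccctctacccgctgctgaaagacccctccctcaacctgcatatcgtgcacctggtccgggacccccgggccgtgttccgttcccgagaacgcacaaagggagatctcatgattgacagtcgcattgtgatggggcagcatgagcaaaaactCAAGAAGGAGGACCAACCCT
CHST5: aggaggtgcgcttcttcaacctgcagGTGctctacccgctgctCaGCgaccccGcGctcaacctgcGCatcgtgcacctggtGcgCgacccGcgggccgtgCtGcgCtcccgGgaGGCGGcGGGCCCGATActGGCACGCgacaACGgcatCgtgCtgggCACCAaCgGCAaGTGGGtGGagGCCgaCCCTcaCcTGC
CHST6: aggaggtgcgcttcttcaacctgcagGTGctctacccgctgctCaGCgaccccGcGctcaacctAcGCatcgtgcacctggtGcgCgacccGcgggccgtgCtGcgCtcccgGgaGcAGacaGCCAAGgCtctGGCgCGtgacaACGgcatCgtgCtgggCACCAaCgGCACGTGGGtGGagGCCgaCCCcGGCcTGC
The 20 bases of the forward primer site were the same in the 3 genes. The windows were counted from that site without gaps. In the reverse primer site 13 bases differed in *CHST5* and 14 in *CHST6*, and over the whole window 71 and 67 bases differed. At the best match anywhere in the transcript, the reverse primer differed by 8 bases in *CHST5* and by 8 in *CHST6*.

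The other members are spread over the genome. *CHST1* lies at chr11:45648877-45665622 (minus strand), *CHST2* at chr3:143119331-143124014 (plus), *CHST3* at chr10:71964365-72013564 (plus), *CHST7* at chrX:46573784-46598408 (plus), *CHST11* at chr12:104455295-104762014 (plus), *CHST14* at chr15:40470998-40474571 (plus) and *CHST15* at chr10:124007666-124093607 (minus). *CHST1*, *CHST2*, *CHST4*, *CHST5*, *CHST6*, *CHST7* and *CHST14* each have their coding sequence in 1 exon, whereas *CHST3* uses 2, *CHST11* 3 and *CHST15* 7.

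The authors deposited FPKM, in which reads are scaled both to gene length and to library size, so levels of different genes can be set side by side. As the FPKM values of a gene rise in equal steps, each step standing for 1 read, the reads could be recovered. The libraries held 32772636 to 44361140 recovered reads (median 39901790 for control, 34431142 for MDM4). *MDM4* itself had 6.35, 7.09 and 5.13 FPKM in the controls (replicates 1 to 3) and 188, 185 and 56.3 FPKM in the MDM4 libraries, so the groups did not overlap, with a log2 fold change of 4.33 (SE 0.43, limma adjusted p = 0.161). The adjusted p of *MDM4* in limma fell to 4.8e-05 with the replicate block and to 3.7e-11 over replicates 1 and 2 only. Replicate 3 stood apart from replicates 1 and 2 in both groups, so results are given with and without it. Of the 10 colon epithelial marker genes, 7 reached 1 FPKM in some library (*EPCAM*, *CDH1*, *KRT8*, *KRT18*, *KRT19*, *CDX2* and *VIL1*), while *KRT20*, *CDX1* and *CEACAM5* did not.

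In SW480 cells the chondroitin and dermatan sulfate enzymes made up most of the expression of the group. *CHST15*, which adds the second sulfate of chondroitin sulfate E, and *CHST11*, a chondroitin 4-O-sulfotransferase, together took between 71.1% and 78.1% of the summed FPKM of the 10 genes in each library. The 5 members that act on chondroitin or dermatan sulfate (*CHST3*, *CHST7*, *CHST11*, *CHST14* and *CHST15*) took between 91.8% and 93.5%, and the 5 that act on N-acetylglucosamine or galactose (*CHST1*, *CHST2*, *CHST4*, *CHST5* and *CHST6*) between 6.53% and 8.21%. *CHST7* is counted with the first 5 although it is also known to act on N-acetylglucosamine. *CHST4* took between 0.173% and 1.17% of the sum.

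*CHST15* had 43.2, 41.7 and 47.6 FPKM in the controls (replicates 1 to 3) and 46.4, 41.7 and 51.6 FPKM in the MDM4 libraries. *CHST11* had 24.2, 25.1 and 34.6 FPKM in control and 20.5, 22.6 and 33.5 FPKM in MDM4. *CHST14*, the dermatan 4-O-sulfotransferase, had 10.1, 8.59 and 9.61 FPKM in control and 8.82, 9.90 and 8.45 FPKM in MDM4. In none of these 3 did the groups separate, and replicate 3 was the highest library of each group for *CHST15* and *CHST11* but not for *CHST14*.

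*CHST3*, a chondroitin 6-O-sulfotransferase, had 4.93, 4.87 and 3.23 FPKM in the controls (replicates 1 to 3) and 6.07, 5.82 and 3.26 FPKM in the MDM4 libraries. *CHST7*, which acts on chondroitin and N-acetylglucosamine, had 3.43, 2.62 and 3.85 FPKM in control and 3.03, 3.61 and 3.25 FPKM in MDM4. For *CHST3* replicate 3 was the lowest library of both groups, and the values of *CHST7* mixed without order.

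*CHST6* had 2.37, 2.55 and 3.41 FPKM in the controls (replicates 1 to 3) and 2.29, 2.81 and 4.08 FPKM in the MDM4 libraries. *CHST2* had 2.71, 2.31 and 3.0 FPKM in control and 2.62, 2.45 and 2.62 FPKM in MDM4. *CHST1*, which sulfates the galactose of keratan sulfate, had 0.505, 0.498 and 1.46 FPKM in control and 0.439, 0.358 and 1.69 FPKM in MDM4. *CHST1* and *CHST6* were thus highest in replicate 3 of both groups, and *CHST2* varied little between libraries.

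*CHST4* had 0.458, 0.287 and 0.185 FPKM in control replicates 1 to 3, from 44, 22 and 16 reads, and 0.907, 1.06 and 0.408 FPKM in the MDM4 libraries, from 71, 79 and 29 reads. Control replicate 1 lay above MDM4 replicate 3, so the groups overlapped by that pair of libraries. *CHST5* had 0.138, 0.138 and 0.0153 FPKM in control, from 20, 16 and 2 reads, and 0.237, 0.115 and 0.149 FPKM in MDM4, from 28, 13 and 16 reads. Its groups overlapped too, and the lowest value rests on the 2 reads of control replicate 3.

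**Figure D1:**
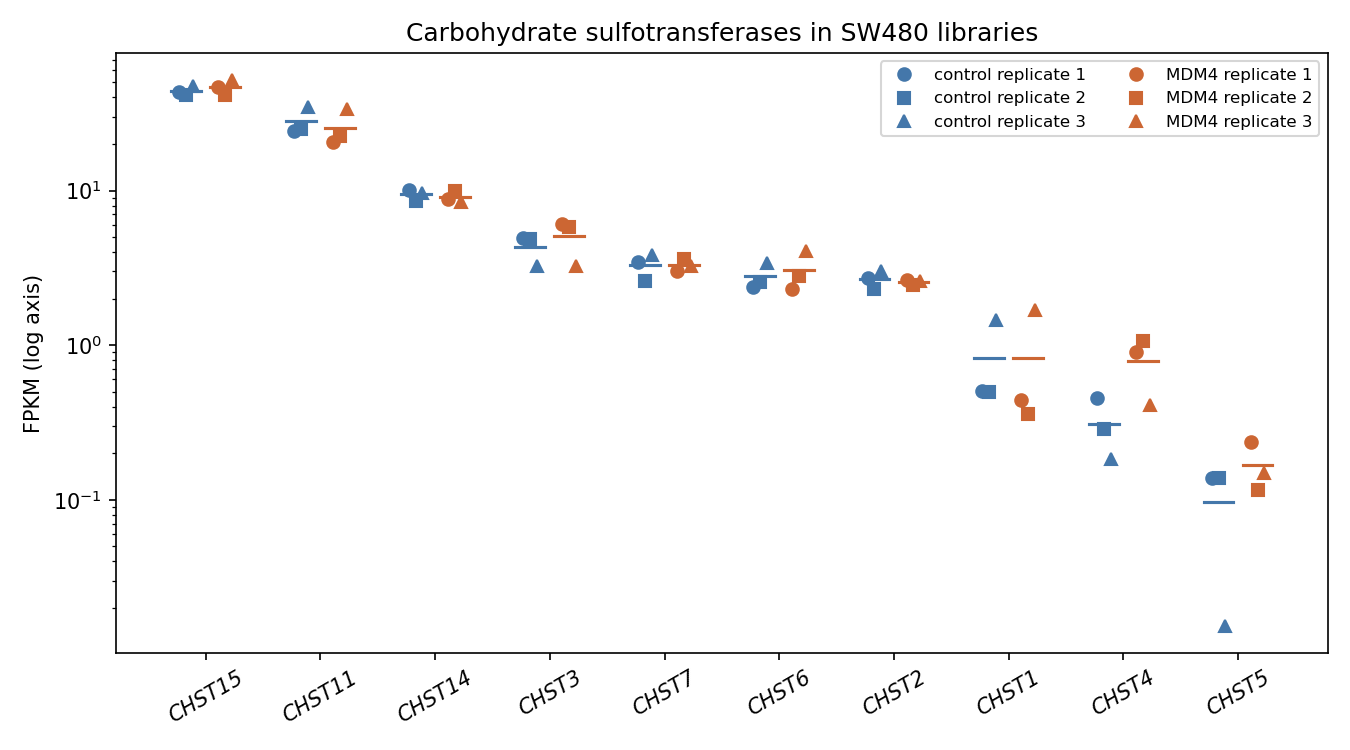
FPKM of the 10 genes on a log axis in each control (blue) and MDM4 (orange) library, with the replicate number as the marker shape and lines at the group means; genes are in the order of their control means. The levels run from 44.2 FPKM for *CHST15* to 0.0970 FPKM for *CHST5* in control. The triangles of replicate 3 lie above the other libraries for *CHST15*, *CHST11*, *CHST6* and *CHST1* and below them for *CHST3*.

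In control the mean levels ran *CHST15* (44.2 ± 3.08 FPKM, SD, n = 3), *CHST11* (28.0 ± 5.78), *CHST14* (9.44 ± 0.776), *CHST3* (4.34 ± 0.963), *CHST7* (3.30 ± 0.625), *CHST6* (2.78 ± 0.558), *CHST2* (2.67 ± 0.347), *CHST1* (0.820 ± 0.552), *CHST4* (0.310 ± 0.138) and *CHST5* (0.0970 ± 0.0707), a 455-fold range. The ranges of *CHST3* and *CHST7*, of *CHST7* and *CHST6*, and of *CHST6* and *CHST2* overlapped, so these neighbours were not separated, while the other neighbours were. With MDM4 the order was the same. *CHST1* (0.829 ± 0.746 FPKM, SD, n = 3) and *CHST4* (0.791 ± 0.340), which did not overlap in control, then overlapped. The summed FPKM of the 10 genes was 95.9 ± 9.77 in control and 97.0 ± 10.5 with MDM4 (SD, n = 3 each, exact two-sided permutation test p = 0.7, a test that cannot go below 0.1 with 3 libraries a group).

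The first comparison asked which members changed when MDM4 was overexpressed. None of the 10 was called, and *CHST4* had the largest difference. A gene was called where limma on log2(FPKM + 0.1) gave an adjusted p below 0.05 together with a log2 fold change beyond 1 in either direction. The fit held the 12884 genes whose mean reached 0.5 FPKM, 9 members among them. Of all genes tested, 0% (0 of 12884) were called, and 222 (1.72%) had an unadjusted p under 0.05. *CHST5* was below the filter, and its fitted values come from the same fit without the filter on 17189 genes. With the replicate block 2 genes (0.0155%), *MDM4* and *CKMT1B*, were called, and over replicates 1 and 2 only 36 genes (0.279%) were called, with no member among either.

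*CHST4* was higher with MDM4 in each same-numbered pair, with ratios of 1.98, 3.69 and 2.21 for replicates 1 to 3. The 95% exact (Clopper-Pearson) intervals of these ratios, from the reads, were 1.34 to 2.96, 2.28 to 6.21 and 1.16 to 4.35, and they cover counting error only. Each interval lay above 1, and the 3 intervals overlapped. The mean was 2.55-fold higher with MDM4, and the fitted log2 fold change was 1.09 (SE 0.41, 95% interval 0.13 to 2.05, limma unadjusted p = 0.0305, adjusted p = 1.0). The exact permutation test of the 3 + 3 FPKM values gave p = 0.2. *CHST4* thus did not pass the test over the 6 libraries. The study chose *CHST4* from these same libraries, and it passed the filter only through the MDM4 group. Its unadjusted p and the intervals above are therefore no independent support. In the fit without the filter its log2 fold change was 1.09 (SE 0.39).

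Without replicate 3 the *CHST4* difference was of like size, with a smaller error. Over replicates 1 and 2 only, the log2 fold change was 1.22 (SE 0.28, limma adjusted p = 0.129). With the replicate block it was 1.09 with an SE of 0.26 (limma adjusted p = 0.249), and in voom with the block, run on recovered reads, 1.32 (SE 0.29, adjusted p = 0.0934). *CHST4* passed the filter at 0.5 FPKM only through the MDM4 group, where it was high (means of 0.310 FPKM in control and 0.791 FPKM with MDM4). Fold changes on this scale understate the change of low genes: with a pseudocount of 1 in place of 0.1 the log2 fold change of *CHST4* was 0.44.

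**Figure D2:**
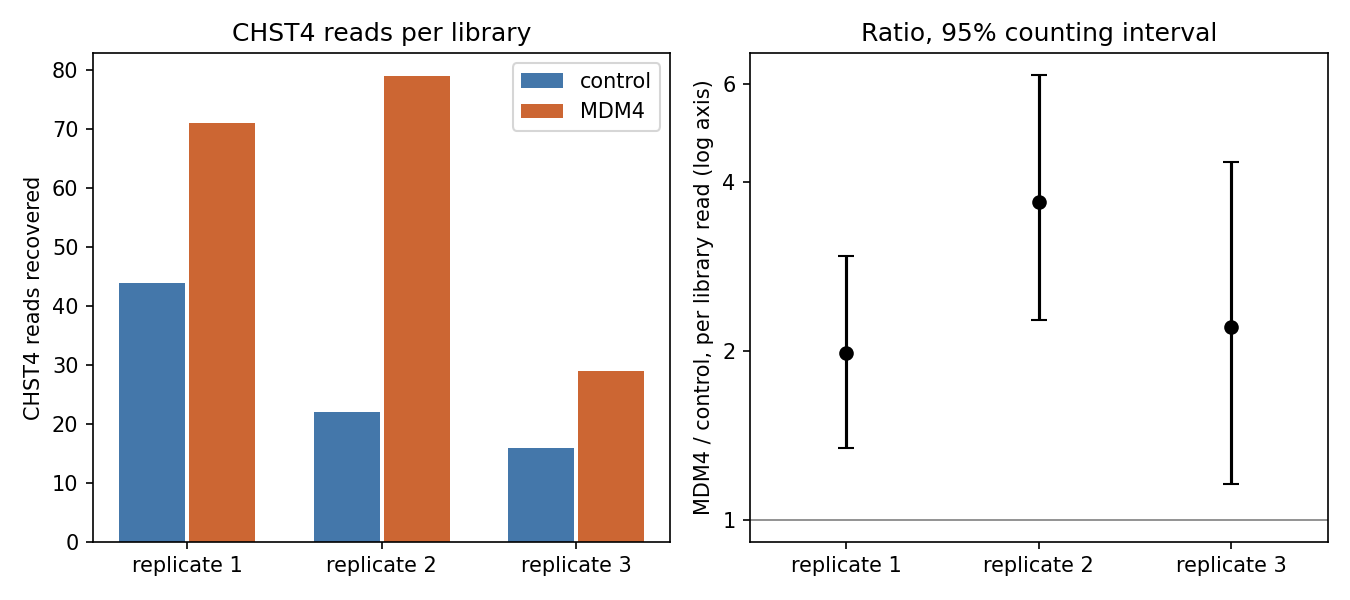
Left, *CHST4* reads recovered in each control (blue) and MDM4 (orange) library by replicate number; right, the ratio of MDM4 to control reads, each scaled to its library's total, on a log axis with its 95% exact counting interval (bars). Ratios were 1.98, 3.69 and 2.21, and each interval stays above the line at 1.

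None of the other GlcNAc and galactose sulfotransferases passed the test, and their differences from *CHST4* were not tested. *CHST2*, the partner of *CHST4* in high endothelial venules, had a log2 fold change of -0.05 (SE 0.16, 95% interval -0.42 to 0.32). *CHST6* had 0.11 (SE 0.24, interval -0.46 to 0.68). *CHST1* had -0.12 (SE 0.60, interval -1.51 to 1.27), which leaves more than a doubling or halving within its error. *CHST5* had 0.49 (SE 0.33, interval -0.28 to 1.26), and its same-numbered ratios were 1.72, 0.834 and 9.74, the last from 2 reads against 16 with an exact counting interval of 2.29 to 87.3. A change of *CHST5* could not be resolved at this depth.

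Of the chondroitin and dermatan sulfotransferases, *CHST3* had a log2 fold change of 0.19 (SE 0.27), *CHST15* 0.07 (SE 0.10), *CHST7* 0.01 (SE 0.18), *CHST14* -0.06 (SE 0.12) and *CHST11* -0.14 (SE 0.21). Over these 5 with *CHST2* and *CHST6*, the 95% intervals reached from -0.63 to 0.82, so none of their intervals held a change of 1 on the log2 scale. Each of these members had an adjusted p of 1.0 in limma. *CHST3* was higher with MDM4 in replicates 1 and 2, by 1.23-fold and 1.19-fold, and at 1.01-fold in replicate 3. Over replicates 1 and 2 only its log2 fold change was 0.27 (SE 0.12, limma adjusted p = 0.579).

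By replicate number, 3 members (*CHST3*, *CHST4* and *CHST15*) were higher with MDM4 in 3 of 3 pairs and 1 (*CHST11*) was lower in 3 of 3 pairs. These counts take any margin: the replicate 2 pair of *CHST15* was nearly level (1.0004-fold), as was the replicate 3 pair of *CHST3* (1.01-fold). Of all genes tested, 16.6% were higher in the 3 pairs and 18.6% lower. No member had groups that did not overlap, against 6.85% of all genes. The median log2 fold change of the 9 members that passed the filter was 0.01, beside -0.01 for all genes tested.

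**Figure D3:**
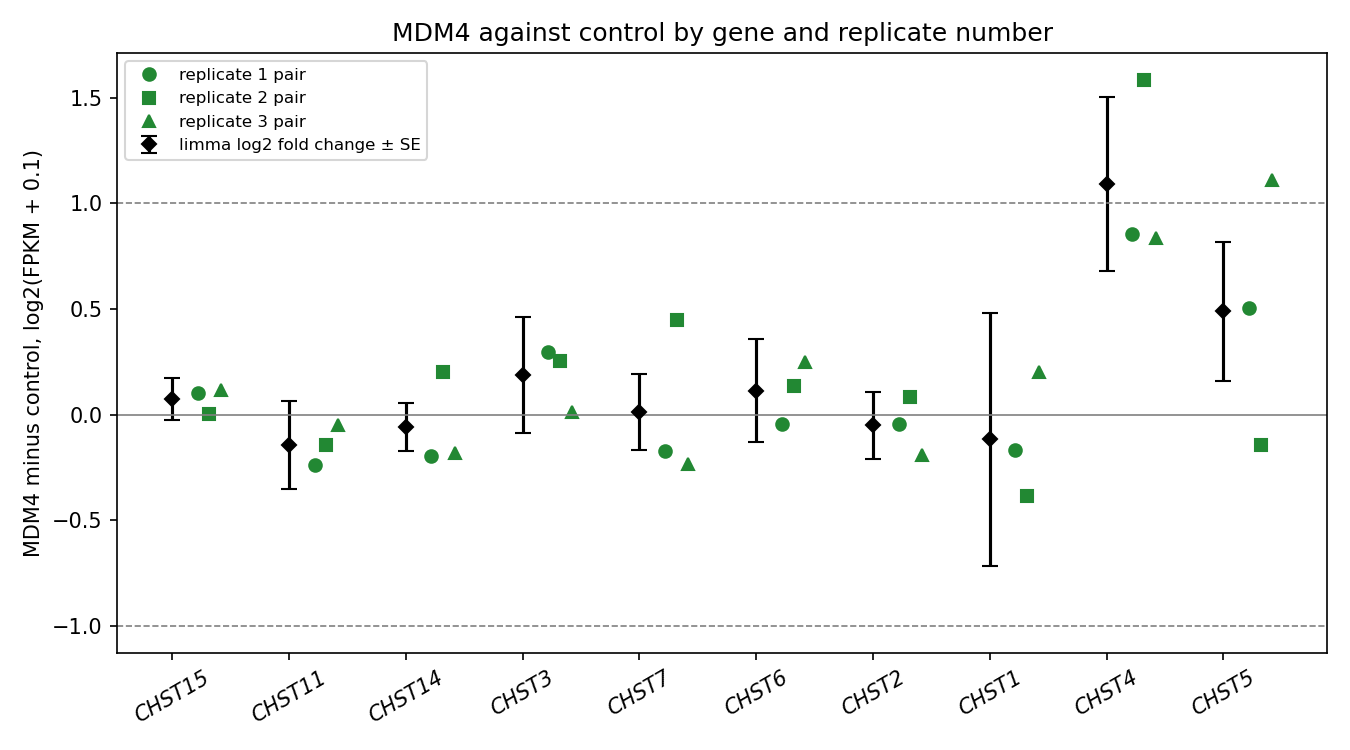
Difference between MDM4 and control on the log2(FPKM + 0.1) scale for each gene: diamonds with bars are the limma log2 fold change ± SE over 6 libraries (for *CHST5* without the filter), green markers are the same-numbered pairs, dashed lines mark 1 and -1. *CHST4* has its 3 pairs between 0.83 and 1.58, and the fitted values of the other 9 genes lie between -0.14 and 0.49.

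The second comparison set replicate 3 against replicates 1 and 2 in a fit with the group as a term. Here 4 members were higher in replicate 3 (*CHST1*, *CHST11*, *CHST6* and *CHST15*) and 2 were lower (*CHST3* and *CHST4*) at an adjusted p under 0.05. Such differences were frequent, as 29.6% of all genes tested were higher in replicate 3 and 14.6% lower. *CHST1* passed the filter only through replicate 3, where it was high. *CHST4* passed it only through replicates 1 and 2 (means of 0.678 FPKM there and 0.297 FPKM in replicate 3). Nothing is therefore read from these counts of members beside the shares. What sets replicate 3 apart, such as a day or a preparation, is not given in the labels.

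*CHST1* had the largest such difference. It was 2.90-fold higher in control replicate 3 than the mean of control replicates 1 and 2 and 4.24-fold higher in the MDM4 group, with a replicate 3 difference of 1.61 (SE 0.22, limma adjusted p = 2.6e-04) on the log2 scale. It was the 1 member past an absolute difference of 1 as well, as were 2.54% of all genes, but it passed the filter at 0.5 FPKM only through replicate 3 (means of 1.57 FPKM in replicate 3 and 0.450 FPKM in replicates 1 and 2), so nothing is read from that share. In the fit without the filter, its limma adjusted p was 0.00118. *CHST11* was 1.41-fold and 1.55-fold higher in replicate 3 of control and MDM4 (0.56 on the log2 scale, SE 0.07, limma adjusted p = 1.4e-04). *CHST6* was 1.39-fold and 1.60-fold higher (0.56, SE 0.13, limma adjusted p = 0.00526), and *CHST15* 1.12-fold and 1.17-fold (0.20, SE 0.06, limma adjusted p = 0.0230).

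*CHST3* and *CHST4* went the other way. *CHST3* in replicate 3 had 0.660 times the mean of replicates 1 and 2 in control and 0.549 times in MDM4 (-0.72 on the log2 scale, SE 0.10, limma adjusted p = 3.5e-04). *CHST4* in replicate 3 had 0.497 times in control and 0.415 times in MDM4 (-0.90, SE 0.26, limma adjusted p = 0.0181). For *CHST4* the exact counting intervals of these ratios from summed reads were 0.262 to 0.846 in control and 0.269 to 0.622 in MDM4, so both lay below 1. The difference of *CHST4* between replicates was thus close in size to that between MDM4 and control. *MDM4* was also lower in replicate 3 of the MDM4 group, as given above; its part in these results was not tested.

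*CHST2*, *CHST7* and *CHST14* did not pass the test for replicate 3 (differences of 0.15, 0.16 and -0.05 on the log2 scale, limma adjusted p of 0.360, 0.388 and 0.701), and neither did *CHST5* (-0.58, adjusted p = 0.148). The median replicate 3 difference of all genes was 0.09 in FPKM and -0.01 after median ratio scaling, so that the share of higher genes among those past the threshold went from 67.0% to 45.4%. After that scaling *CHST15* no longer passed, with 0.09 on the log2 scale (limma adjusted p = 0.242), nor did it pass without the trend (adjusted p = 0.0747), and *CHST2* and *CHST7* turned to -0.11 and -0.07 with quantile normalization. *CHST6* had 0.31 (limma adjusted p = 0.0682) with quantile normalization. *CHST1*, *CHST11*, *CHST3* and *CHST4* kept an adjusted p under 0.05 in each scaling that was run. The scalings reuse the same libraries, and *CHST1* and *CHST4* passed the filter only through libraries where they were high. That they kept it is thus no further support. In the fit without the filter, *CHST4* had -0.90 (SE 0.22, limma adjusted p = 0.0183).

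**Figure D4:**
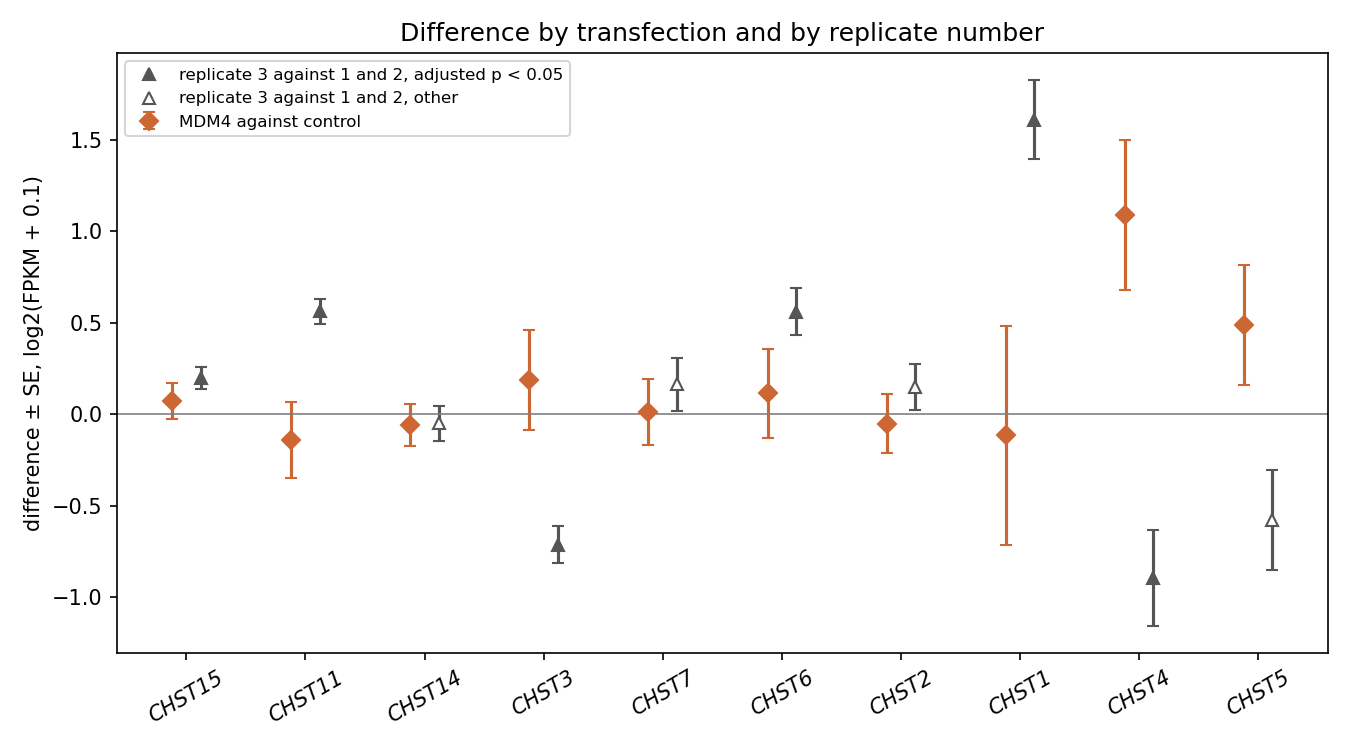
For each gene the MDM4 against control difference (orange diamonds) and the replicate 3 against replicates 1 and 2 difference (grey triangles, filled where the limma adjusted p is under 0.05) on the log2(FPKM + 0.1) scale, bars ± SE. *CHST1* has the largest replicate 3 difference, 1.61, with an MDM4 difference of -0.12, while *CHST4* has 1.09 for MDM4 and -0.90 for replicate 3.

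Whether MDM4 acted on the members differently in replicate 3 was tested by the product of both terms. No member passed (each adjusted p = 1.0 in limma), against 0.179% of all genes (23 of 12884), and no member had an unadjusted p under 0.05. For *CHST4* the effect in replicate 3 minus that in replicates 1 and 2 was -0.38 (SE 0.54) on the log2 scale. For *MDM4* itself the same term was -1.35 (SE 0.15, limma adjusted p = 0.00166).

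The rest of the sulfation pathway was taken from 7 lists of genes. Of 71 tested genes in them, 0 were called in either direction, in the fit without a block, with the block or over replicates 1 and 2. The shares of all genes called in these fits were 0%, 0.0155% and 0.279%, so nothing is read from the lack of calls among 71 genes. The medians of the lists lay between -0.15 and 0.06 on the log2 scale, beside -0.01 for all genes. Among 7 tested other carbohydrate sulfotransferases, 3 had a fitted value above 0 and 4 below, with a median of -0.15. *GAL3ST2*, a galactose 3-O-sulfotransferase, had 2.73, 2.50 and 2.26 FPKM in the controls (replicates 1 to 3) and 1.52, 1.81 and 1.96 FPKM with MDM4. Its groups did not overlap, and its log2 fold change was -0.48 (SE 0.17, limma unadjusted p = 0.0258, adjusted p = 1.0, and 0.306 with the block). It was the 1 gene of that kind among the 7 tested, beside 6.85% of all genes, and nothing is read from so few. *GAL3ST2*, like *NDST2*, *VCAN* and *SUMF1* below, was named because its groups did not overlap, so its unadjusted p is no support. *CHST9* was at 0 reads in the 6 libraries and *CHST8* had 1 read in each of 2 of them; both were picked after their values were seen.

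Of the 10 tested heparan sulfate and tyrosine sulfotransferases 8 had a fitted value above 0 and 2 below, with a median of 0.06. *NDST2*, which replaces the acetyl group of heparan N-acetylglucosamine with sulfate, had 5.43, 5.08 and 5.29 FPKM in control and 4.97, 4.45 and 4.87 FPKM with MDM4 (log2 fold change -0.14, SE 0.12), and its groups did not overlap. Sulfate uptake and PAPS supply, which feeds each of these enzymes, had 6 of 10 tested genes above 0 and a median of 0.05. No gene of this list had groups that did not overlap, beside the 6.85% of all genes.

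Chondroitin and dermatan sulfate chain synthesis had 7 of 12 tested genes above 0 and a median of 0.03. Sialyl Lewis x and keratan sulfate chain synthesis, which makes the acceptor chains of *CHST4*, had 6 of 14 above 0 and a median of -0.02. Neither list held a gene whose groups did not overlap, where 6.85% of all genes were of that kind, and with so few genes nothing is read from this. Of 8 tested core proteins 5 lay above 0 with a median of 0.04. *VCAN*, the chondroitin sulfate proteoglycan versican, had 9.74, 12.1 and 11.3 FPKM in control and 13.9, 14.0 and 13.8 FPKM with MDM4, so its groups did not overlap (log2 fold change 0.33, SE 0.11, limma unadjusted p = 0.0156, adjusted p = 1.0, and 0.249 with the block). Of 10 tested genes of the list of sulfatases, which remove sulfate, and their activating factors, 3 lay above 0 with a median of -0.06. *SUMF1*, the enzyme that activates sulfatases, had 11.1, 12.5 and 11.7 FPKM in control and 13.1, 13.5 and 14.3 FPKM with MDM4 (log2 fold change 0.21, SE 0.10, limma unadjusted p = 0.0570, adjusted p = 1.0). *VCAN* and *SUMF1* were picked because their groups did not overlap, so their unadjusted p-values are no support.

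**Figure D5:**
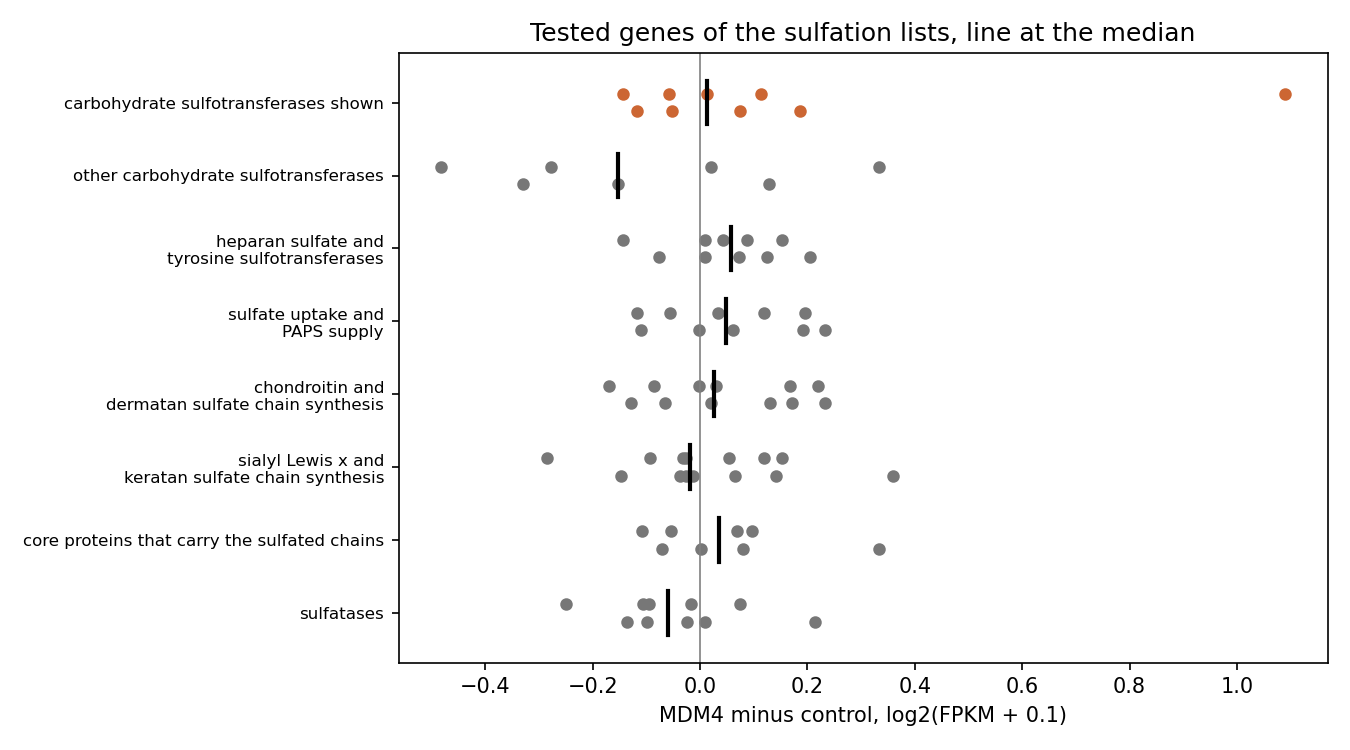
Limma log2 fold change (MDM4 minus control) of each tested gene of the described carbohydrate sulfotransferases (orange) and of the 7 sulfation lists (grey), with a black line at each median. *CHST4* at 1.09 is the only point over 1, and the medians lie between -0.15 and 0.06.

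Because *CHST4* is known from endothelium, markers of other cells were read beside it. Of the 10 markers of endothelial cells, high endothelial venules included, 9 were in the table, 1 (*ROBO4*) reached 1 FPKM, and *EMCN* and *ACKR1* were at 0 in the 6 libraries. Their summed level was between 2.73 and 4.42 FPKM in control and between 2.96 and 3.62 FPKM with MDM4. Of 8 leukocyte markers 1 (*CD68*) reached 1 FPKM and *MS4A1* was at 0, with sums between 5.32 and 6.41 FPKM in control and between 5.74 and 6.0 FPKM with MDM4. Of 6 fibroblast markers 1 (*COL1A1*) reached 1 FPKM, with sums between 1.75 and 3.94 FPKM in control and between 1.97 and 3.93 FPKM with MDM4. The sums of these 3 lists overlapped between the groups. The sums of the 10 colon epithelial markers did not, with 4544 to 4902 FPKM in control and 4221 to 4520 FPKM with MDM4. Of all single genes tested, 6.85% had groups that did not overlap. Such a sum is set by its most abundant genes, and the 3 markers under 1 FPKM add little to it. The FPKM total over all genes was also lower in MDM4 replicates 1 and 3 than in each control library, but not in MDM4 replicate 2. No change of cell identity is read from these sums, and their part in the results was not tested.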

How the data were processed

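Expression of 3 control and 3 MDM4 libraries of SW480 cells was analysed. The authors deposited FPKM values from oligo(dT)-enriched mRNA for 19225 symbols; the aligner, annotation and build are not given in the sources used here. The columns carry a letter and a number, read as group and replicate number. Reads were recovered from the FPKM steps for 17189 of 17189 genes above 0, and on simulated data 98.0% of 2955 genes came back exactly. Genes averaging 0.5 FPKM or more entered limma 3.58.1 (R 4.3.3, lmFit and eBayes with trend, no block) as log2(FPKM + 0.1), and p-values were adjusted by Benjamini-Hochberg. The fit was also run on simulated data, where it called 94.5% of 200 genes changed by known folds. The changes set there were all larger than the fitted change of *CHST4*, and the noise was drawn from the spread of control replicates 1 and 2. That rate therefore does not carry over to these libraries or to *CHST4*. Exact tests used scipy 1.17.1, alignments Biopython 1.88, and positions GENCODE release 29.

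The members and lists were chosen with earlier results of these data known. Named genes are *MDM4*, the 10 members, list genes called or, up to 2 a list, with the largest change among those without overlap and marker genes. The genes whose pattern was most like *CHST4*, which the rule also names, are not reported here. Deviations from the group means of same-numbered libraries correlated across genes at 0.46, 0.45 and 0.78 in replicates 1 to 3. Control replicate 1 correlated at 0.46 with MDM4 replicate 2 too, and control replicate 2 at 0.44 with MDM4 replicate 1. These values matched replicate 3 of both groups but did not tell replicates 1 and 2 apart. Libraries were paired by their numbers, which for replicates 1 and 2 rests on the numbers alone. Other pseudocounts (0.5 and 1), filters (none and 1 FPKM), scalings, voom, the replicate block and each library left out were alternatives.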

Additional observations from a re-analysis of the deposited data

How the results depend on the processing

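The count of called members for MDM4 against control was 0 under each alternative. *CHST4* was higher with MDM4 in 17 of 17 alternatives, with log2 fold changes between 0.44 and 1.45 and adjusted p between 0.0934 and 1.0. The alternatives reuse the same libraries, from which the study chose *CHST4* and where it passed the filter only through the MDM4 group. Their shared direction is thus no further support. A filter at 1 FPKM gives no value for *CHST1*, *CHST4* and *CHST5*. The count of all genes called for MDM4 against control was 2 with the replicate block, 14 in voom with the replicate block and 36 over replicates 1 and 2, and between 0 and 16 with a library left out, 16 without control replicate 3 and 1 without MDM4 replicate 3. *MDM4* itself (4.33, adjusted p = 0.161) passed with 4.33 with the replicate block, 4.44 in voom with the replicate block and 4.78 over replicates 1 and 2, and had between 4.03 and 4.91 with a library left out. With the block *CKMT1B* also passed (-1.34, adjusted p = 0.0405, against 1.0 without it), and the block changed no other call of the genes named. For replicate 3, 163 and 82 of all genes were called with a pseudocount of 0.5 and 1 in place of 327; 0 members were called with a pseudocount of 1 (*CHST1* at 0.83) or the filter at 1 FPKM, and 2 with TPM scaling, quantile normalization and voom, where *CHST4* had -1.01, -1.17 and -1.14. For the difference between the effects in replicate 3 and in replicates 1 and 2, 23 genes were called, 5 by eBayes without trend and 0 without the filter, and *MDM4* then lost its call. The cause of these moves was not tested.

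Signs turned for small differences. For MDM4 against control these were *CHST2* (0.018) and *CHST14* (0.0038) over replicates 1 and 2, and *CHST7* (-0.0016 with quantile normalization, -0.0081 in voom with the block). With a library left out, the log2 fold change ran from -0.73 to 0.34 for *CHST1*, -0.15 to 0.033 for *CHST2*, -0.0081 to 0.47 for *CHST3*, -0.11 to 0.29 for *CHST6*, -0.14 to 0.13 for *CHST7*, -0.35 to 0.020 for *CHST11* and -0.0033 to 0.15 for *CHST15*. For replicate 3, *CHST2* and *CHST7* turned to -0.11 and -0.075 with quantile normalization. *CHST4* and *CHST5* rest on between 2 and 79 reads a library, which limits what can be resolved.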
